A study of Mus musculus with 52 samples.

Results

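Mouse embryonic stem cells (mESCs) that had spent 2 days in totipotency medium were compared with mESCs kept in 2i/L medium, to see what the medium did to this kind of starting cell. The comparison rests on 4 of the 52 libraries of the series, chosen by the treatment in their labels: 2 of treated mESCs and 2 of mESCs in 2i/L. Both groups came from a single mESC line, 2i-0606-td-ES, of wild-type genotype, so the response of other lines is not described by these data. The treated mESCs received totipotency medium for 2 days, and the other group received 2i/L, a medium with inhibitors of MEK and GSK3 plus the cytokine LIF. Which agents the totipotency medium contained for mESCs is not stated in the labels, although the design text of the series names CHIR-99021, Elvitegravir, PD0325901 and CD1530 among the small molecules given to EPSCs, another cell type of the series. Whether LIF or the inhibitors of 2i were still present during the 2 days is also not stated. Poly(A) RNA was sequenced as paired reads and counted gene by gene. Nothing in the labels says that the 2 libraries of each group were grown as separate cultures. The p-values measure only the spread between libraries of a group, pooled over all groups of the series, and this spread may be technical.

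At the 2-cell stage the mouse embryo starts its own transcription, and genes such as the Zscan4 cluster, Zfp352 and members of the PRAME, Usp17l and Tdpoz families are active for a short time. A few cells in ordinary mESC cultures pass through a similar state. Retinoic acid, made from vitamin A, acts through the nuclear receptors RAR and RXR, which bind repeats of a short half-site in DNA and switch on Hox genes, the Cyp26 enzymes that degrade retinoic acid, and the meiotic gatekeeper Stra8. Naive mESCs, the state that 2i/L keeps, rest on Pou5f1, Sox2 and Nanog together with Klf4, Esrrb, Tfcp2l1 and others, and LIF supports that network through STAT3.

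The 4 libraries held 51.6 and 44.2 M counts (M for mega) in treated mESCs, against 33.1 and 39.4 M in mESCs in 2i/L, within the 16.6 to 108.3 M of the whole series. Levels are given as CPM, counts scaled to a common library size with TMM factors. They are not corrected for gene length, so a level is compared between groups. Long genes weigh more in the summed levels and in the rankings by CPM. Pearson's r of log2 CPM was 0.9867 within the treated pair and 0.985 within the 2i/L pair, and lay between 0.9363 and 0.9382 across the groups. A gene was called at an edgeR quasi-likelihood adjusted p under 0.05 together with a log2 fold change of 1 or more in either direction. Fold changes are log2 values with the SE from that model, with 2 libraries in each group, and stand in parentheses after the levels. By that rule 3561 of 25056 tested genes rose (14.2%) and 2070 fell (8.26%). These shares are the reference for the list counts below. Both treated libraries lay above both 2i/L libraries in 38.0% of all tested genes, and below both in 33.0%. For a called gene, such a separation of the groups therefore adds little to the call itself. The median log2 fold change of all tested genes was 0.042, and it stayed between 0.011 and 0.074 over the settings tried. Of 12 markers of mESCs, 5 fell and none rose, and their summed level was 4628.6 and 4577.7 CPM in treated mESCs, against 7196.2 and 7198.5 CPM in mESCs in 2i/L. The summed level of 18 markers of feeder fibroblasts was 1449.0 and 1439.9 CPM in treated mESCs, against 2916.5 and 2798.9 CPM in mESCs in 2i/L. Of these fibroblast markers 5 fell and 4 rose (2 without mESC library 2), and S100a4 and Tagln, named after their values were seen, stood at 0 counts in mESC library 1. The collagen genes Col1a1 (-1.20 ± 0.21), Col1a2 (-1.13 ± 0.15) and Col3a1 (-1.11 ± 0.21) were among the fallen, and the part of such cells in the results was not tested. In bulk RNA, fewer cells of a type and less RNA per cell cannot be told apart, and the same holds for a rise in a few cells and a small rise in all of them.

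All 9 tested genes of the Zscan4 cluster rose, with a median log2 fold change of 7.68. Their summed level was 242.2 and 245.8 CPM in treated mESCs, against 1.3 and 1.2 CPM in mESCs in 2i/L. Zscan4 proteins bind DNA in the 2-cell embryo and are known for lengthening telomeres in mESCs. Zscan4c (chr7:11005745-11010547, mm10) had 66.3 and 68.8 CPM in treated mESCs, against 0.262 and 0.381 CPM in mESCs in 2i/L (log2 fold change 7.68 ± 0.34, edgeR adjusted p = 2.6e-24). Zscan4d had 35.2 and 36.1 CPM in treated mESCs, against 0.0655 and 0.0544 CPM in mESCs in 2i/L (9.16 ± 0.83). No library of either group came near the other group in these genes, and the libraries of a group lay close together. Zscan4f, the lowest of the cluster by log2 fold change, still differed by 6.17 ± 0.59, with 15.1 and 15.1 CPM in treated mESCs, against 0.0655 and 0.326 CPM in mESCs in 2i/L. The pseudogenes Zscan4-ps1, Zscan4-ps2 and Zscan4-ps3 rose too, by 6.54, 7.33 and 6.92 on the log2 scale. The copies are close paralogs, so how reads that match several of them were counted is uncertain. This bears on the single copies and on the sum over the cluster. The promoters of Zscan4c and Zscan4d show this likeness. Over 239 aligned bases before the start site, 232 were identical (97.1%), and the pairs among Zscan4b, Zscan4c, Zscan4d and Zscan4f ran from 94.7% to 99.6%. Both sequences are RefSeq promoters of build GRCm38.p6, written 5′ to 3′ on the strand of the gene, with capitals at the 7 bases that differ, and lie at chr7:11005506-11005744 on the plus strand and at chr7:11166160-11166398 on the minus strand:
Zscan4c: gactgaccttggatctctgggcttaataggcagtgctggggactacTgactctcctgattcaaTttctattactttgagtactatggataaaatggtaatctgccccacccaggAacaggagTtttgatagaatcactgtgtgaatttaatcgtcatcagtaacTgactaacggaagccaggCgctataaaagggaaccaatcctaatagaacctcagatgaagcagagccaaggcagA
Zscan4d: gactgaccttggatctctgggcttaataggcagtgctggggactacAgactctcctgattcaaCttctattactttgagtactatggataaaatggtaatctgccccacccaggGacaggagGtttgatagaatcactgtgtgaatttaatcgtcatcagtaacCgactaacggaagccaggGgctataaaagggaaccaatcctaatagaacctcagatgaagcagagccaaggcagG

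Among 36 other tested genes of the 2-cell embryo, 33 rose, none fell and 3 did not pass. The median of their log2 fold changes was 6.59, or 5.99 once the 8 genes that had no count in mESCs in 2i/L were held at their lower bound. The summed level was 340.1 and 332.7 CPM in treated mESCs, against 20.6 and 24.7 CPM in mESCs in 2i/L. Zfp352, a zinc finger gene of the 2-cell embryo (chr4:90218820-90225702), had 12.3 and 16.1 CPM in treated mESCs, against 0 and 0.0272 CPM in mESCs in 2i/L (9.64 ± 1.52). Eif4a3l1, which resembles an RNA helicase of the exon junction complex, had 32.3 and 32.4 CPM in treated mESCs, against 0.131 and 0.0544 CPM in mESCs in 2i/L (8.46 ± 0.70). Gm5662 had 31.1 and 30.7 CPM in treated mESCs, against 0.197 and 0.218 CPM in mESCs in 2i/L (7.19 ± 0.38). These genes were close to silent in mESCs in 2i/L and well above it in both treated libraries. Usp26, a ubiquitin protease gene, was already present and had 75.5 and 68.2 CPM in treated mESCs, against 12.5 and 15.1 CPM in mESCs in 2i/L (2.38 ± 0.24). Several members had no count at all in mESCs in 2i/L, and their folds were computed against a floor of 3 counts over the group, which makes them lower bounds. Usp17lb, a deubiquitinase gene, had 3.09 and 4.33 CPM in treated mESCs, at least 83.2-fold higher. AA792892 had 5.15 and 5.00 CPM in treated mESCs, at least 114-fold higher. Gm2022 had 3.71 and 2.51 CPM in treated mESCs, at least 69.8-fold higher. The floor covers counting error only, and only in part if both mates of a pair were counted, since low counts were mostly even in 46 of the 52 libraries.

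**Figure D1:**
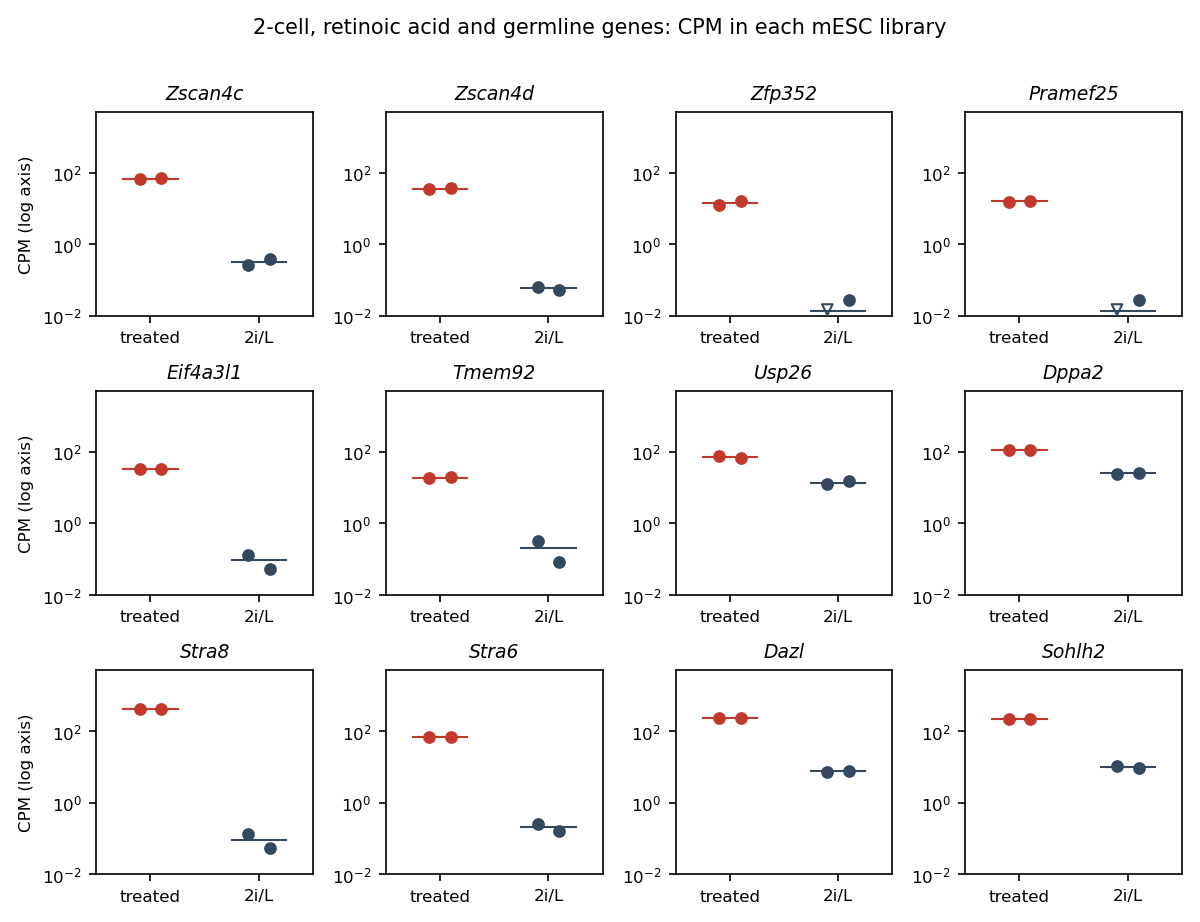
Levels of 12 genes of the 2-cell embryo, the retinoid response and the germline in the 2 libraries of treated mESCs (left in each panel) and the 2 libraries of mESCs in 2i/L (right), as CPM on a log axis. Points are libraries, lines are group means and open triangles are libraries with 0 counts. Both treated libraries lie above both 2i/L libraries in every panel, with Stra8 at 416 and 424 CPM in treated mESCs, against 0.131 and 0.0544 CPM in mESCs in 2i/L.

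The PRAME and Obox families, whose members are active around the 2-cell stage and in germ cells, split. Of 14 tested members 7 rose and 1 fell, and their median was 1.94, or 1.06 when the 3 members at 0 counts in mESCs in 2i/L were held at their bound. The number that rose was 3 without mESC library 1, and 4 without mESC library 2 or without treated library 2. The number that fell was 0 when any of the 4 libraries was left out. Pramef25 had 15.1 and 16.2 CPM in treated mESCs, against 0 and 0.0272 CPM in mESCs in 2i/L (9.78 ± 1.57). Pramel1 had 1.36 and 1.40 CPM in treated mESCs, against 0.197 and 0.0544 CPM in mESCs in 2i/L (3.49 ± 0.57). Pramel3 had 3.21 and 3.82 CPM in treated mESCs, against 0.0655 and 0.163 CPM in mESCs in 2i/L (4.88 ± 1.06). Both treated libraries were above both 2i/L libraries in these 3 genes. Pramef12, present in both groups, had 52.6 and 56.9 CPM in treated mESCs, against 32.1 and 29.3 CPM in mESCs in 2i/L, a log2 fold change of 0.84 ± 0.10 that stayed short of the threshold. Obox6, a homeobox gene, had 11.4 and 11.2 CPM in treated mESCs, against 22.1 and 17.0 CPM in mESCs in 2i/L (-0.79 ± 0.50, edgeR adjusted p = 0.22).

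Dppa2 encodes a chromatin factor that opens genes of the 2-cell state together with Dppa4. Of the 5 tested Dppa genes 2 rose and none fell, and 1 of the 2, Dppa1, did not pass with DESeq2 or without treated library 2 or either mESC library. Dppa2 had 109 and 111 CPM in treated mESCs, against 24.7 and 25.4 CPM in mESCs in 2i/L (2.13 ± 0.10, edgeR adjusted p = 6.8e-19), with no overlap. Dppa4 was lower, with 42.6 and 40.1 CPM in treated mESCs, against 57.1 and 55.1 CPM in mESCs in 2i/L (-0.44 ± 0.12), and did not pass. Dppa3, a maternal factor that protects DNA methylation in the zygote, had 34.1 and 34.2 CPM in treated mESCs, against 22.3 and 20.1 CPM in mESCs in 2i/L (0.69 ± 0.20) and did not pass either. Factors known to repress the 2-cell state, such as chromatin assembly, Polycomb and SUMO pathway genes, showed little difference: of 23 tested, 1 fell and none rose, with a median log2 fold change of -0.03. This is a share below that of all tested genes in both directions. The fallen one was L3mbtl2, a subunit of a variant Polycomb complex, with 71.2 and 70.8 CPM in treated mESCs, against 212 and 198 CPM in mESCs in 2i/L (-1.53 ± 0.08). Its partner Mga had 322 and 335 CPM in treated mESCs, against 597 and 702 CPM in mESCs in 2i/L (-0.98 ± 0.17), and was called fallen with RLE size factors, with DESeq2 and without mESC library 1 (-1.10). Trim28, which silences retroelements, had 1538 and 1515 CPM in treated mESCs, against 1664 and 1457 CPM in mESCs in 2i/L (-0.03 ± 0.081, edgeR adjusted p = 0.81), and its groups overlapped. The maintenance methyltransferase gene Dnmt1 had 618 and 629 CPM in treated mESCs, against 698 and 646 CPM in mESCs in 2i/L (-0.11 ± 0.16), a small difference that did not pass.

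The retinoid pathway was described from supply to target. Of 16 tested genes of retinoid metabolism and transport 9 rose and 2 fell, with a median log2 fold change of 1.96, and their summed level was 247.2 and 240.0 CPM in treated mESCs, against 71.1 and 71.7 CPM in mESCs in 2i/L. Stra6, the membrane receptor that takes up retinol, had 66.7 and 68.8 CPM in treated mESCs, against 0.262 and 0.163 CPM in mESCs in 2i/L (8.33 ± 0.48). Crabp2, which hands retinoic acid to its receptor, had 11.2 and 11.1 CPM in treated mESCs, against 0.590 and 0.789 CPM in mESCs in 2i/L (3.99 ± 0.43). Both the uptake gene and the carrier gene were higher in both treated libraries. Dhrs3, which turns retinal back into retinol, had 19.4 and 18.8 CPM in treated mESCs, against 3.54 and 3.26 CPM in mESCs in 2i/L (2.49 ± 0.21). The degrading enzymes rose as well. Cyp26a1 had 12.4 and 11.5 CPM in treated mESCs, against 0.655 and 0.218 CPM in mESCs in 2i/L (4.83 ± 0.42), Cyp26b1 rose by 2.58 ± 0.37 and Cyp26c1 by 2.34 ± 0.49 on the log2 scale. The synthesis gene Aldh1a3 fell, with 0.922 and 0.791 CPM in treated mESCs, against 8.48 and 9.52 CPM in mESCs in 2i/L (-3.39 ± 0.30). Aldh1a2, the main synthesis gene of the early embryo, had 18.2 and 16.8 CPM in treated mESCs, against 9.37 and 7.62 CPM in mESCs in 2i/L (1.05 ± 0.20), and was not called without mESC library 2 (0.90). Rdh10, which makes retinal, had 10.3 and 9.87 CPM in treated mESCs, against 7.86 and 7.07 CPM in mESCs in 2i/L (0.43 ± 0.17) and did not pass. The 2 fallen genes, Aldh1a3 and Stra6l, were a synthesis gene and a relative of the uptake receptor.

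Of the 6 retinoid receptor genes 4 rose and none fell. Rarb, which in many cells is itself a target of retinoic acid, had no count in mESCs in 2i/L and 7.00 and 7.68 CPM in treated mESCs, at least 165-fold higher, with 38.4% of its exonic bases shared with another gene. Rarg had 49.5 and 46.2 CPM in treated mESCs, against 15.7 and 17.3 CPM in mESCs in 2i/L (1.54 ± 0.19). Both receptors rose in both treated libraries. Rara had 61.1 and 58.3 CPM in treated mESCs, against 30.1 and 28.6 CPM in mESCs in 2i/L (1.02 ± 0.13), close to the threshold and not called with RLE size factors, with DESeq2 or without mESC library 2 (0.99). Rxra (0.78 ± 0.14) and Rxrb (0.30 ± 0.23) did not pass on the log2 fold change. Among 15 tested target factors 13 rose and 1 fell, with a median of 3.07 and a summed level of 850.9 and 855.5 CPM in treated mESCs, against 103.6 and 103.9 CPM in mESCs in 2i/L. A large part of that sum is Stra8, a retinoic acid target that germ cells need to enter meiosis (chr6:34920163-34939344), with 416 and 424 CPM in treated mESCs, against 0.131 and 0.0544 CPM in mESCs in 2i/L (12.15 ± 0.56, edgeR adjusted p = 8.5e-30). Zfp703 had 94.2 and 100.0 CPM in treated mESCs, against 3.18 and 2.77 CPM in mESCs in 2i/L (5.03 ± 0.24). The levels of both genes were more than an order of magnitude apart between the groups. Cdx1, a homeobox gene that acts on Hox genes, had 69.6 and 67.0 CPM in treated mESCs, against 8.45 and 7.83 CPM in mESCs in 2i/L (3.07 ± 0.18). Tgm2, a transglutaminase gene often used as a retinoic acid target, fell, with 9.92 and 11.1 CPM in treated mESCs, against 30.1 and 27.3 CPM in mESCs in 2i/L (-1.45 ± 0.19).

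Since most measured genes of this pathway rose, the promoters of its members were searched for the repeats that RAR and RXR bind. The half-site searched was AGNTCA, with N for any base, in direct repeats with 5 bases (DR5) or 2 bases (DR2) between them, on both strands of the 300 bases from 250 before the start to 50 after it. Of the 77 tested genes in the retinoid and Hox lists 48 had a promoter in the RefSeq table, and 1 of the 48, Cyp26a1, held a DR5 match, with no DR2 match in its window. A DR5 match stood in 67 (0.204%) and a DR2 match in 35 (0.107%) of all 32851 promoters of that table. The half-site AGGTCA was searched for in the Stra8 promoter after its sequence had been seen, and was found at -194 and -38 from the start. At least 1 AGGTCA stood in 5340 of the 32851 promoters (16.3%), and 2 or more in 594 (1.81%). The Cyp26a1 sequence is shown because it was the only one of these promoters with a match. Stra8 was picked because it had the largest log2 fold change of the target factors. A match is a description of letters, and says nothing on whether a receptor was bound. Both run 250 bases up to the base before the RefSeq start, on the plus strand of GRCm38.p6. Cyp26a1 lies at chr19:37697558-37697807, with the DR5 match, read on the minus strand and starting 32 bases before the start, in capitals. Stra8 lies at chr6:34920698-34920947, with both half-sites in capitals, and its RefSeq start is downstream of the gene start in the GENCODE annotation:
Cyp26a1: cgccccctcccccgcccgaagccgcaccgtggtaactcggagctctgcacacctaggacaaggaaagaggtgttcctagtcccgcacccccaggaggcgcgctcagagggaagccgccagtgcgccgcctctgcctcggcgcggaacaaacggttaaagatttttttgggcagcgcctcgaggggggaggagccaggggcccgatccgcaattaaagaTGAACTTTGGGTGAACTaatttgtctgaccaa
Stra8: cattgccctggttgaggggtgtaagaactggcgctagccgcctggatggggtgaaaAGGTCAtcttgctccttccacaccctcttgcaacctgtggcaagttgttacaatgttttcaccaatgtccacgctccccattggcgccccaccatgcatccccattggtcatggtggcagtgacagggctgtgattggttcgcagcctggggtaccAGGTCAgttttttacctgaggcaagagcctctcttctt

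Hox genes, which set position along the body axis and answer retinoic acid from the 3′ end of each cluster, rose in 3 of the 4 clusters. Of 43 tested Hox and Cdx genes and Hox-linked transcripts 31 rose and 2 fell (1 without treated library 2 or without mESC library 1), with a median log2 fold change of 2.60. In cluster A 10 of 11 tested genes rose, in cluster B 8 of 10, in cluster D 7 of 8, and in cluster C 2 of 9, where another 2 fell. Paralogues 1 to 5, at the 3′ end, rose in 13 of 15 cases with a median of 4.28, and paralogues 6 to 13 in 14 of 23 cases with a median of 1.76. Most tested genes of cluster C are paralogues 6 to 13, so class and cluster are partly mixed in this contrast. Hoxb1 (chr11:96365752-96368256) had 6.88 and 7.59 CPM in treated mESCs, against 0 and 0.0544 CPM in mESCs in 2i/L (7.79 ± 1.35). Hoxd1 had 2.81 and 2.12 CPM in treated mESCs, against 0.0655 and 0.0544 CPM in mESCs in 2i/L (5.31 ± 0.83). Both were low in mESCs in 2i/L, and both treated libraries were well above. Hoxa5 had 10.6 and 10.0 CPM in treated mESCs, against 0.0655 and 0.0816 CPM in mESCs in 2i/L (7.06 ± 0.96). Hoxa9 had 9.26 and 10.7 CPM in treated mESCs, against 0.655 and 1.85 CPM in mESCs in 2i/L (2.96 ± 0.29). Halr1, a long noncoding RNA beside the Hoxa cluster, had 23.1 and 21.6 CPM in treated mESCs, against 0 and 0.109 CPM in mESCs in 2i/L (8.49 ± 0.68), and its fitted value was 12.88 without mESC library 2, where the other 2i/L library had no count. These genes of cluster A and its flank rose without overlap. Hoxc13, at the 5′ end of cluster C, fell, with 5.71 and 7.10 CPM in treated mESCs, against 18.5 and 16.1 CPM in mESCs in 2i/L (-1.43 ± 0.23). Cdx2, a regulator of Hox genes and of trophectoderm, had 6.44 and 7.29 CPM in treated mESCs, against 1.70 and 2.12 CPM in mESCs in 2i/L (1.83 ± 0.36). Neighbouring Hox genes overlap, and without a stated strand their reads cannot all be told apart.

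**Figure D2:**
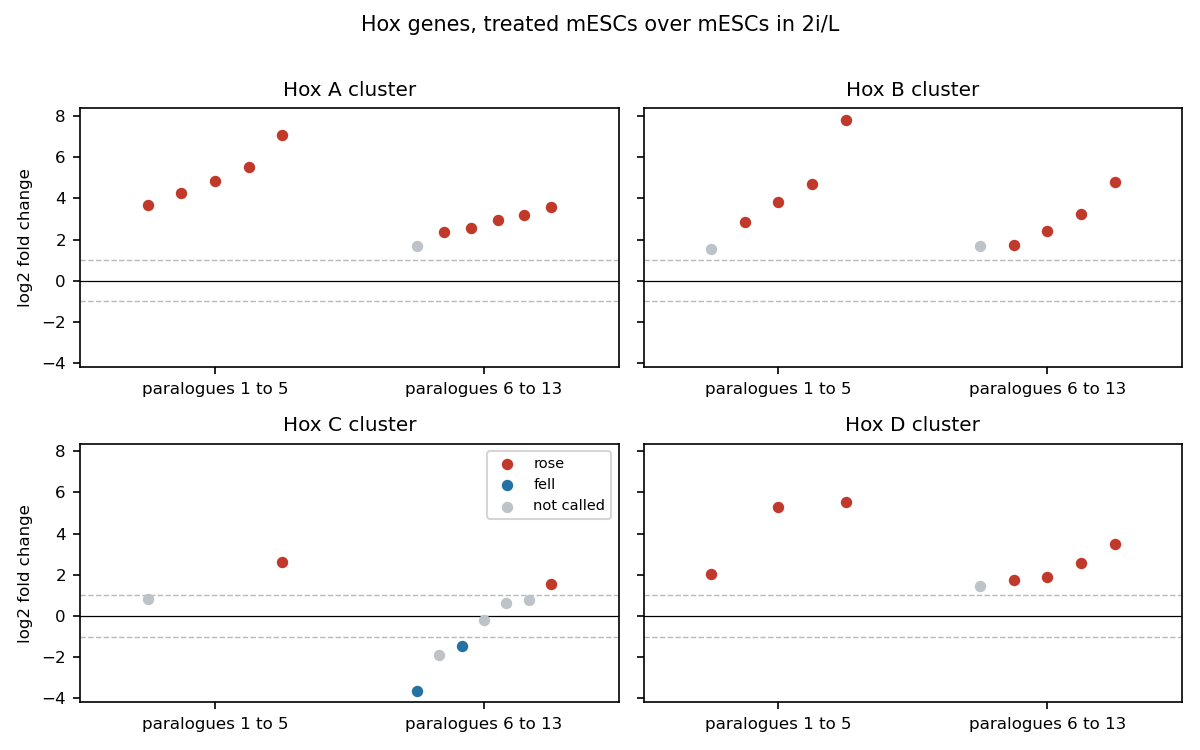
Log2 fold change of the tested Hox genes in treated mESCs against mESCs in 2i/L (vertical axis), for paralogues 1 to 5 and 6 to 13 (horizontal axis) in clusters A to D. Each point is a gene, ordered by its value within a class, and its colour gives the call. Most points of clusters A, B and D are risen genes, with 10 of 11, 8 of 10 and 7 of 8 genes called, while cluster C has 2 risen and 2 fallen genes of 9.

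Germ cell genes moved in both directions. Of 21 tested meiosis genes 8 rose and 4 fell (2 without treated library 1 or without mESC library 2), with a median log2 fold change of 0.74. Rec8, the meiotic cohesin subunit, had 69.4 and 71.9 CPM in treated mESCs, against 31.2 and 26.8 CPM in mESCs in 2i/L (1.28 ± 0.10). Meioc, which extends meiotic prophase, had 14.4 and 13.3 CPM in treated mESCs, against 4.78 and 4.32 CPM in mESCs in 2i/L (1.61 ± 0.20). Sycp2, of the synaptonemal complex, had 1.93 and 1.30 CPM in treated mESCs, against 0.262 and 0.272 CPM in mESCs in 2i/L (2.59 ± 0.61). All 3 stood above 2i/L in both treated libraries. Spo11, which cuts DNA to start recombination, had no count in mESCs in 2i/L and 0.822 and 0.535 CPM in treated mESCs, at least 15.2-fold higher. The fallen side held genes of the same chromosome axis. Stag3, another meiotic cohesin subunit, had 18.7 and 19.5 CPM in treated mESCs, against 66.7 and 60.1 CPM in mESCs in 2i/L (-1.73 ± 0.11). Hormad1, an axis protein, had 10.5 and 9.50 CPM in treated mESCs, against 26.1 and 25.5 CPM in mESCs in 2i/L (-1.37 ± 0.21). Cohesin genes thus differed in sign, and the groups did not overlap in any of the meiosis genes given here. Of 22 tested genes of germline identity and the piRNA pathway 13 rose and 2 fell, with a median of 1.15. Dazl, an RNA-binding protein that licenses germ cells for gametogenesis, had 238 and 238 CPM in treated mESCs, against 7.24 and 7.70 CPM in mESCs in 2i/L (4.99 ± 0.18). Sohlh2, a germ cell transcription factor, had 214 and 218 CPM in treated mESCs, against 10.3 and 9.55 CPM in mESCs in 2i/L (4.45 ± 0.10). Taf7l, a germ cell form of a TFIID subunit, had 42.9 and 41.4 CPM in treated mESCs, against 1.83 and 2.50 CPM in mESCs in 2i/L (4.27 ± 0.17). The groups lay far apart in these 3 genes. Tfap2c, a factor of primordial germ cells and of trophectoderm, had 262 and 258 CPM in treated mESCs, against 69.7 and 61.2 CPM in mESCs in 2i/L (1.99 ± 0.14). Tdrd12, of the piRNA pathway, fell, with 52.7 and 47.9 CPM in treated mESCs, against 174 and 182 CPM in mESCs in 2i/L (-1.82 ± 0.14). Piwil2 had 40.3 and 38.9 CPM in treated mESCs, against 42.3 and 45.0 CPM in mESCs in 2i/L (-0.14 ± 0.11) and did not pass.

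Genes of trophectoderm and placenta, the lineage outside the embryo proper, mostly rose. Of 32 tested 20 rose and 6 fell, with a median log2 fold change of 1.47, and the summed level was 3730.8 and 3670.2 CPM in treated mESCs, against 1197.7 and 1130.8 CPM in mESCs in 2i/L. Most of that sum is Peg10, a retrotransposon-derived imprinted gene needed for the placenta (chr6:4747306-4760517), with 2283 and 2223 CPM in treated mESCs, against 47.8 and 51.7 CPM in mESCs in 2i/L (5.50 ± 0.14). Fgfr2, the FGF receptor through which trophoblast stem cells grow, had 57.7 and 56.4 CPM in treated mESCs, against 2.59 and 2.09 CPM in mESCs in 2i/L (4.61 ± 0.23). Rhox6, an X-linked homeobox gene, had 26.7 and 28.1 CPM in treated mESCs, against 0.721 and 0.653 CPM in mESCs in 2i/L (5.32 ± 0.33). Its neighbour Rhox9 had 25.1 and 22.3 CPM in treated mESCs, against 0.524 and 0.272 CPM in mESCs in 2i/L (5.92 ± 0.40). These 4 genes were each more than an order of magnitude higher in treated mESCs. Gata3, a trophectoderm factor, had 18.1 and 18.2 CPM in treated mESCs, against 6.16 and 7.04 CPM in mESCs in 2i/L (1.46 ± 0.22). Eomes had 13.6 and 12.8 CPM in treated mESCs, against 4.78 and 4.05 CPM in mESCs in 2i/L (1.58 ± 0.19), and the trophectoderm keratins Krt8 and Krt18 rose by 1.48 ± 0.16 and 2.27 ± 0.15 on the log2 scale. These factors and keratins were higher in both treated libraries. Against that direction, Tead4, the factor that starts the trophectoderm programme, fell, with 18.9 and 18.0 CPM in treated mESCs, against 83.2 and 86.0 CPM in mESCs in 2i/L (-2.20 ± 0.15), as did the sodium pump subunit Atp1b1 (-1.53 ± 0.10) and the tight junction gene Cldn4 (-1.34 ± 0.12). Plac1, a placental gene, had 3.25 and 3.91 CPM in treated mESCs, against 0.0655 and 0.0544 CPM in mESCs in 2i/L (5.84 ± 1.02).

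Peg10 is an imprinted gene, of a class read from 1 parental copy, and other genes of this class went both ways. Of 40 tested 15 rose, 6 fell and 19 did not pass, with a median log2 fold change of 0.41. The summed level was 5475.4 and 5426.7 CPM in treated mESCs, against 1825.3 and 1895.5 CPM in mESCs in 2i/L. Most of that rise lay in Peg10, H19 and Slc38a4. H19, a noncoding RNA read from the maternal copy (chr7:142575529-142578143), had 743 and 767 CPM in treated mESCs, against 20.6 and 18.5 CPM in mESCs in 2i/L (5.27 ± 0.24). Sfmbt2, paternally expressed in the placenta, had 213 and 219 CPM in treated mESCs, against 32.7 and 32.3 CPM in mESCs in 2i/L (2.73 ± 0.14). Sgce, the neighbour of Peg10, had 28.6 and 28.4 CPM in treated mESCs, against 5.11 and 4.62 CPM in mESCs in 2i/L (2.55 ± 0.12). All 3 rose without overlap. Slc38a4, an amino acid transporter gene, had 516 and 506 CPM in treated mESCs, against 128 and 136 CPM in mESCs in 2i/L (1.96 ± 0.10). Other imprinted genes fell. Meg3, maternally expressed from the Dlk1-Dio3 region, had 14.4 and 14.3 CPM in treated mESCs, against 124 and 112 CPM in mESCs in 2i/L (-3.04 ± 0.24). Dio3 had 0.160 and 0.233 CPM in treated mESCs, against 1.97 and 1.96 CPM in mESCs in 2i/L (-3.31 ± 0.58). Both belong to a single imprinted region. Igf2r had 373 and 369 CPM in treated mESCs, against 268 and 278 CPM in mESCs in 2i/L (0.44 ± 0.15). Peg3 had 285 and 285 CPM in treated mESCs, against 217 and 245 CPM in mESCs in 2i/L (0.30 ± 0.13), and neither passed. So the imprinted genes did not move as a block. Zfp57, whose protein guards the methylation of imprinted regions, fell to 131 and 124 CPM in treated mESCs, against 619 and 602 CPM in mESCs in 2i/L (-2.26 ± 0.08). The counts do not separate the parental copies.

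Genes of the primitive and visceral endoderm, the other extraembryonic lineage, were divided. Of 28 tested 9 rose and 5 fell, and their median was 0.59, or 0.51 when 1 member at 0 counts in a group was held at its bound. The summed level was lower, at 2110.0 and 2096.1 CPM in treated mESCs, against 3909.3 and 3896.4 CPM in mESCs in 2i/L. Gata6 had 5.27 and 5.80 CPM in treated mESCs, against 2.06 and 1.55 CPM in mESCs in 2i/L (1.62 ± 0.18). Sox17 had 3.01 and 3.07 CPM in treated mESCs, against 0.328 and 0.326 CPM in mESCs in 2i/L (3.21 ± 0.35). Pdgfra had 12.8 and 10.1 CPM in treated mESCs, against 3.21 and 2.39 CPM in mESCs in 2i/L (2.04 ± 0.17). These factors of the early endoderm were higher in both treated libraries. Lrp2, an endocytic receptor of the visceral endoderm, had 75.8 and 80.2 CPM in treated mESCs, against 7.40 and 6.83 CPM in mESCs in 2i/L (3.46 ± 0.20). The lipid carrier gene Apoe fell, with 232 and 232 CPM in treated mESCs, against 1356 and 1299 CPM in mESCs in 2i/L (-2.52 ± 0.19). The laminin gene Lama1 fell, with 29.2 and 28.4 CPM in treated mESCs, against 253 and 270.4 CPM in mESCs in 2i/L (-3.18 ± 0.18). These 2 genes account for much of the lower sum. Gata4 had 3.79 and 4.05 CPM in treated mESCs, against 6.29 and 6.96 CPM in mESCs in 2i/L (-0.76 ± 0.18). Sparc had 396 and 393 CPM in treated mESCs, against 753 and 748 CPM in mESCs in 2i/L (-0.93 ± 0.11), and neither passed. Matrix genes are shared with fibroblasts, whose markers summed to 1449.0 and 1439.9 CPM in treated mESCs, against 2916.5 and 2798.9 CPM in mESCs in 2i/L.

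**Figure D3:**
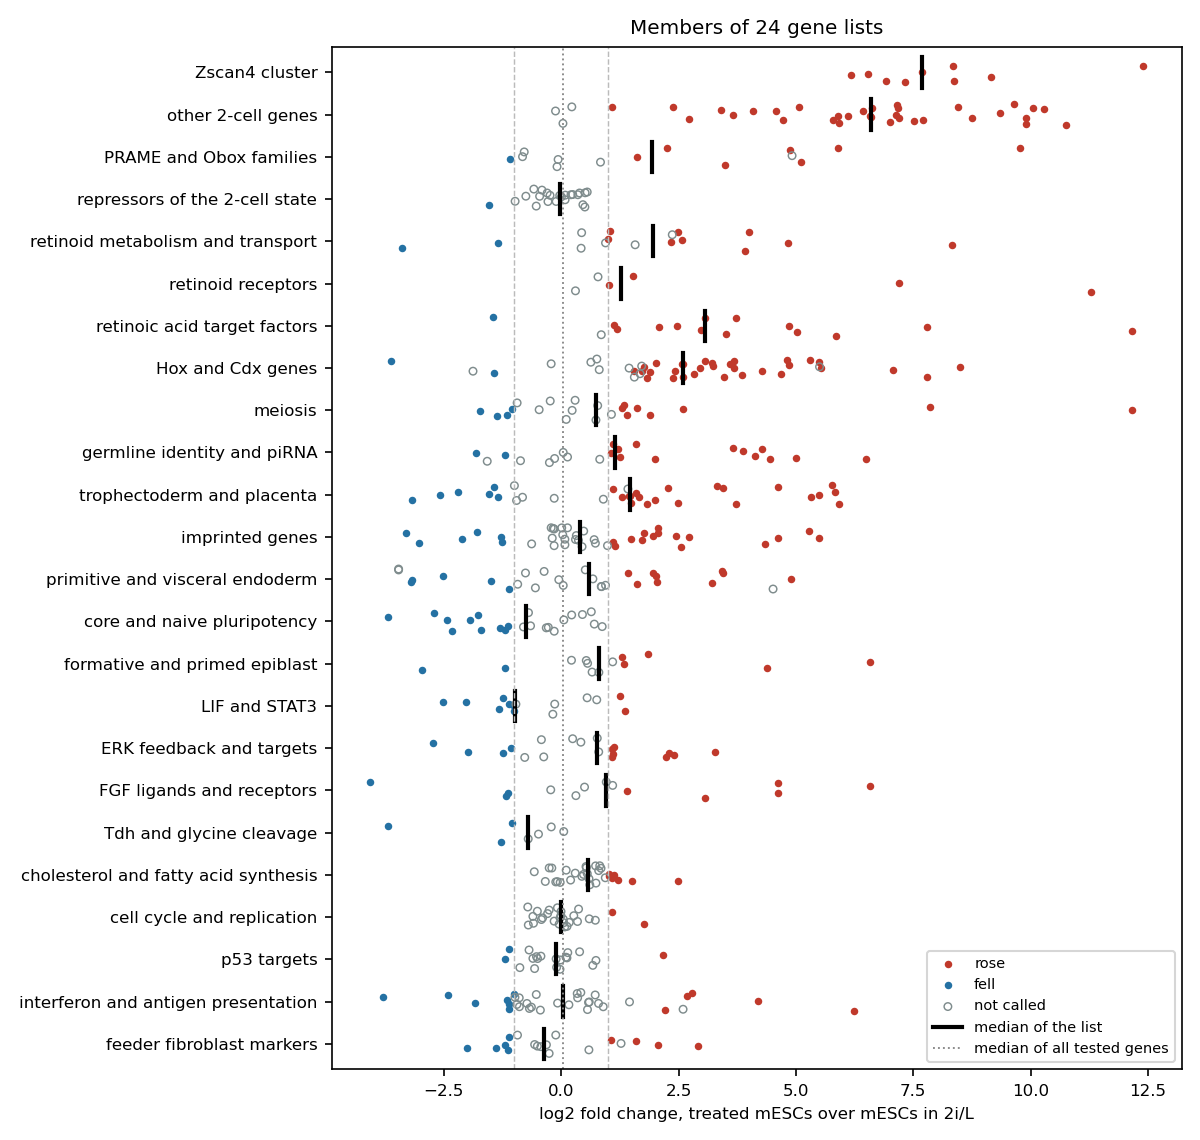
Log2 fold change in treated mESCs against mESCs in 2i/L (horizontal axis) for every tested member of 24 gene lists (rows). Each point is a gene, red where it rose, blue where it fell and open where it was not called, black bars are list medians, dashed lines mark a log2 fold change of 1 in either direction and the dotted line is the median of all tested genes (0.042). The Zscan4 and other 2-cell lists have medians of 7.68 and 6.59, while the core and naive pluripotency list has a median of -0.75.

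The core and naive pluripotency genes fell in part. Of 22 tested 10 fell, none rose and 12 did not pass, with a median log2 fold change of -0.75. The summed level was 5171.2 and 5103.0 CPM in treated mESCs, against 8650.4 and 8593.3 CPM in mESCs in 2i/L. Pou5f1, the factor all these cells need (chr17:35506018-35510772), had 254 and 257 CPM in treated mESCs, against 629.8 and 627 CPM in mESCs in 2i/L (-1.30 ± 0.14, edgeR adjusted p = 4.8e-10). The naive factor Klf4, a target of LIF signalling, had 128 and 124 CPM in treated mESCs, against 439.9 and 419 CPM in mESCs in 2i/L (-1.77 ± 0.21). Esrrb, which can stand in for Nanog in the naive network, had 223 and 228 CPM in treated mESCs, against 748 and 731 CPM in mESCs in 2i/L (-1.72 ± 0.12). These 3 genes fell to well under the 2i/L level in both treated libraries. Tfcp2l1 had 725 and 717 CPM in treated mESCs, against 1554 and 1732 CPM in mESCs in 2i/L (-1.19 ± 0.15). Klf5 had 67.7 and 64.6 CPM in treated mESCs, against 331 and 331 CPM in mESCs in 2i/L (-2.32 ± 0.12). Nr0b1, which with Esrrb holds the naive network, had 11.3 and 9.99 CPM in treated mESCs, against 73.4 and 66.2 CPM in mESCs in 2i/L (-2.71 ± 0.13). The groups did not overlap in these genes either. Other members were not called. Nanog (chr6:122707489-122714633) had 741 and 734 CPM in treated mESCs, against 543 and 536 CPM in mESCs in 2i/L (0.45 ± 0.10). Klf2 had 293 and 280.1 CPM in treated mESCs, against 163 and 149.9 CPM in mESCs in 2i/L (0.87 ± 0.12). Zfp42, also known as Rex1, had 212 and 210.3 CPM in treated mESCs, against 232 and 237 CPM in mESCs in 2i/L (-0.15 ± 0.10). None of the 3 fell past the threshold. Sox2 had 367 and 356 CPM in treated mESCs, against 449 and 452 CPM in mESCs in 2i/L (-0.32 ± 0.094). Fgf4, a ligand that mESCs secrete under the control of Pou5f1 and Sox2, fell, with 109 and 109 CPM in treated mESCs, against 241 and 239.8 CPM in mESCs in 2i/L (-1.14 ± 0.14).

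**Figure D4:**
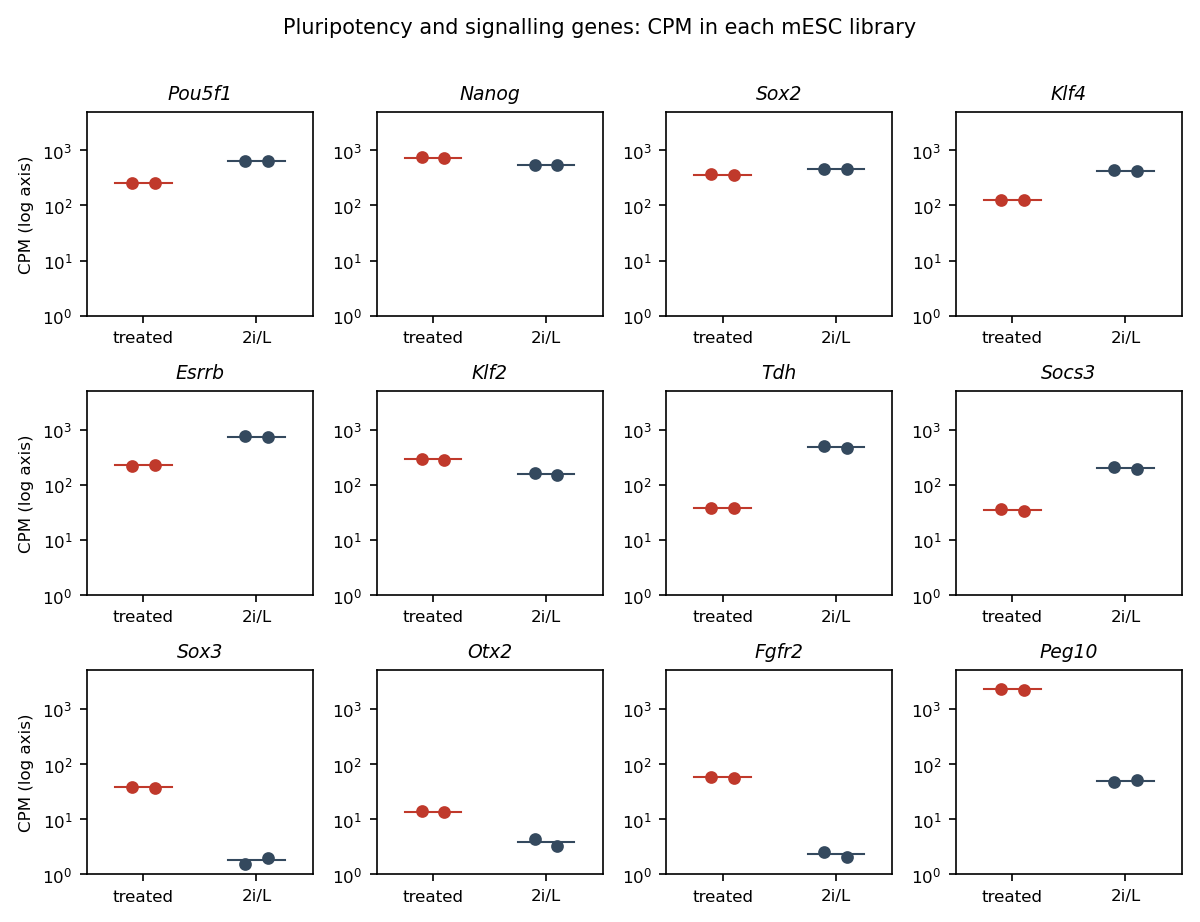
Levels of 12 pluripotency, LIF, formative and placental genes in the 2 libraries of treated mESCs (left in each panel) and the 2 libraries of mESCs in 2i/L (right), as CPM on a log axis that starts at 1, with points for libraries and lines for group means. Pou5f1, Klf4, Esrrb, Tdh and Socs3 are lower in treated mESCs, Nanog and Sox2 differ by less than the threshold of 1 on the log2 scale, and Sox3, Otx2, Fgfr2 and Peg10 are higher.

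Markers of the next steps of epiblast development moved apart from one another. Of 13 tested formative and primed epiblast genes 5 rose and 2 fell, with a median log2 fold change of 0.80. Sox3 had 38.4 and 37.2 CPM in treated mESCs, against 1.57 and 2.01 CPM in mESCs in 2i/L (4.39 ± 0.30). Otx2, which leads naive cells into the formative state, had 13.9 and 13.3 CPM in treated mESCs, against 4.42 and 3.21 CPM in mESCs in 2i/L (1.84 ± 0.15). Zic2 had 75.1 and 80.5 CPM in treated mESCs, against 33.2 and 28.5 CPM in mESCs in 2i/L (1.33 ± 0.13). All 3 were higher in both treated libraries. Fgf5, the usual marker of the formative epiblast, had no count in mESCs in 2i/L and only 0.160 and 0.419 CPM in treated mESCs, at least 6.50-fold higher. Lef1, a transcription factor of the Wnt pathway, fell, with 2.97 and 3.26 CPM in treated mESCs, against 23.9 and 24.8 CPM in mESCs in 2i/L (-2.97 ± 0.13). Of 15 tested genes of the primitive streak 7 rose and 2 fell (1 without treated library 1), with a median of 1.09. Lefty1, a Nodal inhibitor, had 103 and 93.5 CPM in treated mESCs, against 11.8 and 12.7 CPM in mESCs in 2i/L (3.00 ± 0.17). The streak factor T, also called Brachyury, fell, with 0.922 and 0.698 CPM in treated mESCs, against 4.36 and 4.51 CPM in mESCs in 2i/L (-2.44 ± 0.28). Streak genes therefore went both ways. Foxa2, of the later endoderm, had 0.922 and 1.02 CPM in treated mESCs, against 0.0655 and 0 CPM in mESCs in 2i/L (4.89 ± 1.01), and its fitted value was 8.37 without mESC library 1, where the other 2i/L library had no count. Mixl1 had 0.982 and 0.791 CPM in treated mESCs, against 0.197 and 0.326 CPM in mESCs in 2i/L (1.73 ± 0.47). Both rose at levels of about 1 CPM.

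The LIF and STAT3 genes fell on balance. Of 14 tested 7 fell and 2 rose (1 without mESC library 2), with a median log2 fold change of -0.99. Socs3, the feedback inhibitor that STAT3 switches on, had 36.2 and 34.0 CPM in treated mESCs, against 209 and 196 CPM in mESCs in 2i/L (-2.53 ± 0.17). Lifr, the LIF receptor, had 34.0 and 35.8 CPM in treated mESCs, against 79.2 and 85.0 CPM in mESCs in 2i/L (-1.23 ± 0.12). The kinase gene Pim3 (-1.11 ± 0.14) and the early response gene Junb (-1.32 ± 0.25), both STAT3 targets, fell as well. Receptor and targets were thus lower in both treated libraries. Lif itself had 23.7 and 22.9 CPM in treated mESCs, against 9.40 and 8.89 CPM in mESCs in 2i/L (1.35 ± 0.15). The ligand gene was therefore higher while its receptor was lower.

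Genes that report ERK signalling, the pathway MEK inhibitors block, did not move together. Of 19 tested 8 rose and 4 fell, with a median log2 fold change of 0.77. Spry4, a feedback inhibitor, had 4.45 and 5.07 CPM in treated mESCs, against 1.11 and 0.925 CPM in mESCs in 2i/L (2.23 ± 0.26). Etv4, an ETS factor, had 12.1 and 12.4 CPM in treated mESCs, against 5.67 and 5.49 CPM in mESCs in 2i/L (1.13 ± 0.20). Both rose. Egr1, an immediate early gene, had 1.44 and 1.49 CPM in treated mESCs, against 0.0655 and 0.218 CPM in mESCs in 2i/L (3.28 ± 0.69). The phosphatase gene Dusp5 had 22.4 and 18.4 CPM in treated mESCs, against 4.72 and 3.62 CPM in mESCs in 2i/L (2.30 ± 0.14). Other feedback genes fell. Spry2, a close relative of Spry4, had 6.46 and 5.87 CPM in treated mESCs, against 43.0 and 38.4 CPM in mESCs in 2i/L (-2.72 ± 0.10). The phosphatase gene Dusp4 had 6.33 and 6.56 CPM in treated mESCs, against 27.4 and 23.9 CPM in mESCs in 2i/L (-1.99 ± 0.12). The summed level of the list was lower, at 580.9 and 576.9 CPM in treated mESCs, against 757.1 and 747.7 CPM in mESCs in 2i/L. Etv5, with 250.3 and 249 CPM in treated mESCs, against 422 and 433 CPM in mESCs in 2i/L (-0.78 ± 0.094), took much of that sum and did not pass. Dusp9, an ERK phosphatase gene outside this list and among the 10 risen genes with the highest CPM, had 705 and 713 CPM in treated mESCs, against 67.8 and 68.0 CPM in mESCs in 2i/L (3.38 ± 0.15).

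Among FGF ligands and receptors 5 of 13 rose (3 with the replicate number as a block) and 3 fell, with a median log2 fold change of 0.96. Beside Fgfr2, the ligand gene Fgf1 had 4.83 and 5.54 CPM in treated mESCs, against 0.197 and 0.218 CPM in mESCs in 2i/L (4.62 ± 0.46). Fgfr1 had 259.9 and 256 CPM in treated mESCs, against 138 and 128 CPM in mESCs in 2i/L (0.96 ± 0.093), short of the threshold, and was called risen without mESC library 1 (1.01). Of 18 tested Wnt targets and feedback genes 6 rose and 4 fell, around a median of -0.06. Dkk1, a secreted Wnt inhibitor, had 5.25 and 4.05 CPM in treated mESCs, against 0 and 0.109 CPM in mESCs in 2i/L (6.23 ± 0.91), and its fitted value was 10.62 without mESC library 2, where the other 2i/L library had no count. Rnf43, which removes Wnt receptors from the membrane, had 0.682 and 1.12 CPM in treated mESCs, against 10.7 and 9.95 CPM in mESCs in 2i/L (-3.53 ± 0.25). Axin2, the most widely used readout of the pathway, had 45.5 and 45.7 CPM in treated mESCs, against 59.1 and 61.2 CPM in mESCs in 2i/L (-0.40 ± 0.15, edgeR adjusted p = 0.035), a difference short of the threshold of 1. Sp5, another target, fell, with 7.34 and 5.63 CPM in treated mESCs, against 16.5 and 18.2 CPM in mESCs in 2i/L (-1.42 ± 0.18). Wnt genes therefore gave readings of both signs. The 15 tested BMP genes were split, 4 up and 4 down, around a median of -0.04. The homeobox gene Msx2 had 36.4 and 36.4 CPM in treated mESCs, against 0.393 and 0.326 CPM in mESCs in 2i/L (6.66 ± 0.34). Id3 had 7.74 and 6.56 CPM in treated mESCs, against 1.44 and 1.20 CPM in mESCs in 2i/L (2.45 ± 0.25). Id2 had 2.49 and 1.40 CPM in treated mESCs, against 6.00 and 8.57 CPM in mESCs in 2i/L (-1.90 ± 0.21), so relatives of a single family differed in sign. Of 12 tested Nodal and Activin genes 3 rose (25.0%) and 1 fell (8.33%), around a median of -0.09. Of all tested genes 14.2% rose and 8.26% fell. The fallen list member, the Nodal coreceptor gene Tdgf1, had 270.0 and 259 CPM in treated mESCs, against 936 and 937 CPM in mESCs in 2i/L (-1.83 ± 0.15).

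Of 11 tested genes of DNA methylation 1 rose (9.09%) and 2 fell (18.2%), where 14.2% of all tested genes rose and 8.26% fell. The number that rose was 3 without mESC library 2, and the number that fell was 1 without treated library 1. Their median log2 fold change was -0.11. The de novo methyltransferase gene Dnmt3a had 162 and 156 CPM in treated mESCs, against 62.9 and 67.2 CPM in mESCs in 2i/L (1.29 ± 0.11). Its relative Dnmt3b had 144 and 146 CPM in treated mESCs, against 126 and 124 CPM in mESCs in 2i/L (0.22 ± 0.081) and did not pass. Methyltransferase genes thus differed in size of response. The demethylase gene Tet1 had 348 and 352 CPM in treated mESCs, against 552 and 683 CPM in mESCs in 2i/L (-0.82 ± 0.15). Tet2 had 254 and 259 CPM in treated mESCs, against 126 and 159 CPM in mESCs in 2i/L (0.84 ± 0.19). Neither passed, although Tet2 was called risen without mESC library 2 (1.02), and their signs were opposite. Of 27 tested cell cycle and replication genes 2 rose (7.41%) and none fell, with a median of -0.01 and a range from -0.71 to 1.76. The cyclin gene Ccne2 had 21.6 and 21.7 CPM in treated mESCs, against 9.79 and 10.6 CPM in mESCs in 2i/L (1.08 ± 0.16). Cdkn1c, an inhibitor of cyclin-dependent kinases, had 7.32 and 6.87 CPM in treated mESCs, against 2.26 and 1.93 CPM in mESCs in 2i/L (1.76 ± 0.26). The replication licensing genes Mcm5 (0.05 ± 0.12) and Mcm6 (-0.03 ± 0.064) stood close to 0 on the log2 scale. Of 20 tested p53 targets 1 rose (5.0%) and 2 fell (10.0%, or 1 gene without treated library 2), with a median of -0.10. Cdkn1a, the p53 target p21, had 146 and 136 CPM in treated mESCs, against 216 and 214 CPM in mESCs in 2i/L (-0.60 ± 0.13). Mdm2 had 181 and 177 CPM in treated mESCs, against 193 and 193 CPM in mESCs in 2i/L (-0.11 ± 0.088), and neither passed. Of 15 tested BCL2 family genes, which decide on cell death, 5 rose (3 without mESC library 1) and 2 fell (1 without treated library 2). Pmaip1, also called Noxa, had 72.6 and 68.2 CPM in treated mESCs, against 14.4 and 16.8 CPM in mESCs in 2i/L (2.17 ± 0.11). Bcl2l11, also called Bim, had 42.5 and 42.3 CPM in treated mESCs, against 11.5 and 11.2 CPM in mESCs in 2i/L (1.90 ± 0.10). Bmf had 41.1 and 36.6 CPM in treated mESCs, against 12.2 and 12.6 CPM in mESCs in 2i/L (1.65 ± 0.12). These death-promoting members rose, while another, Hrk, fell, with 1.84 and 2.42 CPM in treated mESCs, against 7.73 and 8.54 CPM in mESCs in 2i/L (-1.94 ± 0.30). The survival gene Bcl2l1 had 33.7 and 32.1 CPM in treated mESCs, against 66.6 and 61.8 CPM in mESCs in 2i/L (-0.96 ± 0.21), just short of the threshold, and was called fallen without mESC library 2 (-1.02).

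Metabolic genes changed in a few branches. Tdh, the threonine dehydrogenase on which mESCs depend (chr14:63492347-63509092), had 37.6 and 37.6 CPM in treated mESCs, against 503 and 473 CPM in mESCs in 2i/L (-3.70 ± 0.098, edgeR adjusted p = 2.6e-25). Of the 7 tested genes of threonine and glycine breakdown 3 fell and none rose, with a median log2 fold change of -0.70, and Gldc, of the glycine cleavage system, had 135 and 138 CPM in treated mESCs, against 337 and 330.4 CPM in mESCs in 2i/L (-1.29 ± 0.085). Of 20 tested genes of serine synthesis and the integrated stress response 4 fell and 1 rose, with a median of -0.20. Asns, asparagine synthetase, had 509.9 and 499.5 CPM in treated mESCs, against 1158 and 1093 CPM in mESCs in 2i/L (-1.16 ± 0.11). Ddit3 had 9.08 and 10.5 CPM in treated mESCs, against 27.6 and 25.0 CPM in mESCs in 2i/L (-1.43 ± 0.17). Nupr1 had 5.41 and 7.40 CPM in treated mESCs, against 46.0 and 52.0 CPM in mESCs in 2i/L (-2.94 ± 0.37). The 3 stress genes fell without overlap. The serine pathway gene Psat1 had 334 and 329 CPM in treated mESCs, against 467 and 460.2 CPM in mESCs in 2i/L (-0.48 ± 0.084) and did not pass.

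Of 30 tested genes of cholesterol and fatty acid synthesis 7 rose and none fell, with a median of 0.57, and both treated libraries were above both 2i/L libraries in 23 of the 30, against 38.0% of all tested genes. Most differences were below 1 on the log2 scale, as in Scd2, a fatty acid desaturase gene with 3112 and 3081 CPM in treated mESCs, against 1870.0 and 1859 CPM in mESCs in 2i/L (0.73 ± 0.098). Lss, a cholesterol synthesis enzyme gene, had 171 and 168 CPM in treated mESCs, against 79.9 and 79.6 CPM in mESCs in 2i/L (1.09 ± 0.094). Both enzyme genes were higher in both treated libraries. Of the 6 tested genes of sterol efflux 2 fell. Abca1, a cholesterol exporter gene, had 16.6 and 18.1 CPM in treated mESCs, against 84.5 and 92.1 CPM in mESCs in 2i/L (-2.35 ± 0.19). Abcg1 had 7.24 and 6.29 CPM in treated mESCs, against 29.6 and 31.0 CPM in mESCs in 2i/L (-2.16 ± 0.17).

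Of 27 tested glycolysis and hypoxia genes 4 rose (14.8%) and 4 fell (14.8%), around a median of -0.11, where 14.2% of all tested genes rose and 8.26% fell. The glucose transporter gene Slc2a1 had 1782 and 1761 CPM in treated mESCs, against 609.6 and 604 CPM in mESCs in 2i/L (1.54 ± 0.100). The lactate exporter gene Slc16a3 had 507 and 512 CPM in treated mESCs, against 237 and 215 CPM in mESCs in 2i/L (1.17 ± 0.26). Egln3, an oxygen sensor gene, had 216 and 216 CPM in treated mESCs, against 74.2 and 65.8 CPM in mESCs in 2i/L (1.62 ± 0.17). The enzyme gene Pfkp fell, with 502 and 508 CPM in treated mESCs, against 1063 and 1111 CPM in mESCs in 2i/L (-1.11 ± 0.13). Pfkm (-1.41 ± 0.089) and Ldhb (-1.39 ± 0.10) fell as well. Gapdh had 3836 and 3850.0 CPM in treated mESCs, against 4143 and 3857 CPM in mESCs in 2i/L (-0.06 ± 0.18). Pgk1 had 2185 and 2183 CPM in treated mESCs, against 2677 and 2545 CPM in mESCs in 2i/L (-0.26 ± 0.11), and neither passed. Of 14 tested amino acid transporter genes 4 rose and 1 fell, around a median of 0.09. The fallen one was Slc7a3, a carrier of cationic amino acids, with 38.5 and 40.9 CPM in treated mESCs, against 134 and 116 CPM in mESCs in 2i/L (-1.65 ± 0.12), and Slc38a4 rose most by log2 fold change.

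Beyond the lists, the called genes were ranked by log2 fold change, with a minimum of 10 CPM in either group, and by CPM. Among the 12 fallen genes with the largest change, the pepsinogen gene Pgc had 0.241 and 0.466 CPM in treated mESCs, against 42.4 and 38.5 CPM in mESCs in 2i/L (-6.85 ± 0.41). The ion channel gene Trpm1 had 1.44 and 1.07 CPM in treated mESCs, against 67.2 and 60.7 CPM in mESCs in 2i/L (-5.66 ± 0.25). Others were the acute phase genes Serpina3n (-5.70 ± 0.57) and Saa3 (-4.04 ± 0.20), the clathrin adaptor gene Ap1m2 (-4.93 ± 0.30) and the plakin gene Eppk1 (-4.70 ± 0.32). The 10 risen genes with the highest CPM in treated mESCs included genes of the cell surface and matrix. Dag1, the dystroglycan gene, had 797 and 812 CPM in treated mESCs, against 271 and 277 CPM in mESCs in 2i/L (1.55 ± 0.11). The collagen gene Col18a1 had 883 and 899.7 CPM in treated mESCs, against 358 and 349.9 CPM in mESCs in 2i/L (1.33 ± 0.16). The RNA helicase gene Dhx9 had 772 and 774 CPM in treated mESCs, against 320.1 and 340.4 CPM in mESCs in 2i/L (1.23 ± 0.067). The 10 fallen genes with the highest CPM in mESCs in 2i/L held matrix and metabolic genes. Fibronectin, Fn1, had 1301 and 1313 CPM in treated mESCs, against 2771 and 2899 CPM in mESCs in 2i/L (-1.12 ± 0.18). The creatine kinase gene Ckb had 299.6 and 295 CPM in treated mESCs, against 902 and 806 CPM in mESCs in 2i/L (-1.52 ± 0.12). The groups overlapped in none of the genes of these rankings given here, but these genes were chosen among those called between the same libraries.

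The response of mESCs was then set beside that of extended pluripotent stem cells (EPSCs), the cells on which the medium was tested in most of the series. The EPSC groups were 2 libraries of the wild-type line mc6-1/Mu-mClover3-10# after 2 days in totipotency medium and 2 libraries of the same line in LCDM medium, and they share no library with the mESC groups. The difference of the 2 responses was tested gene by gene, and a positive value means a higher log2 fold change in mESCs. Cell line, starting medium and experiment differ together, so their parts cannot be told apart. In the 12 libraries of the EPSC experiment 3756 tested genes had no count at all. Among them were 32 of the 716 list members, such as Sox2, B2m, Hoxa5 and Fgf1, and no difference is read for those. These libraries held 23.9 to 108.3 M counts. Whether the zeros reflect expression or a difference in counting between the experiments was not tested, so they are not read as absent transcripts. A difference in counting could also bear on the genes that are read. The difference was called for 4678 of 25056 genes (18.7%), with 2181 higher in the mESC response (8.7%) and 2497 lower (9.97%). In EPSCs 4673 genes rose (18.7%) and 2295 fell (9.16%). All of these calls lay among the 21300 genes with a count in the EPSC experiment. The shares over 25056 genes are therefore lower than the shares over the genes that can be read. Over the 21300 genes with a count in those libraries, 2027 rose in both, which is 61.5% of the genes that rose in mESCs and 43.4% of those that rose in EPSCs. There were 615 that fell in both, 35.7% of the fallen genes in mESCs and 26.8% of those in EPSCs. Opposite calls were fewer: 121 genes rose in mESCs and fell in EPSCs, and 179 fell in mESCs and rose in EPSCs.

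Genes of the 2-cell state rose in both cell types. All 9 Zscan4 genes rose in both, and the difference was called lower in mESCs for 8 of them. Of the 9, 8 had no count in untreated EPSCs, among them 7 of the 8 so called, so the sizes of their fitted differences depend on the prior count and are not given. Zscan4c reached 66.3 and 68.8 CPM in treated mESCs, and 429 and 463 CPM in EPSCs after the medium, against 0 counts in EPSCs. Of 35 other 2-cell genes with a count in those libraries 32 rose in mESCs and 33 in EPSCs, 32 of them in both, with 17 differences lower in mESCs and 1 higher. Here 20 of the 36 tested had no count in untreated EPSCs, among them 10 of the 17. Stra8 rose by 12.15 ± 0.56 in mESCs and by 13.48 ± 0.49 in EPSCs on the log2 scale, a difference of -1.33 ± 0.75 that did not pass (edgeR adjusted p = 0.23).

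Pluripotency genes differed in the other direction. Among 21 core and naive genes with a count in the EPSC experiment 10 fell in mESCs and 18 in EPSCs, all 10 of the mESC genes among the 18, and the difference was called higher in mESCs for 17 and lower for none. Pou5f1 had a log2 fold change of -1.30 ± 0.14 in mESCs and -4.70 ± 0.14 in EPSCs, a difference of 3.40 ± 0.19 (edgeR adjusted p = 2.3e-16). In EPSCs after the medium Pou5f1 had 10.7 and 10.4 CPM, against 277 and 270.2 CPM in EPSCs. Nanog had a log2 fold change of 0.45 ± 0.10 in mESCs and -2.36 ± 0.10 in EPSCs, a difference of 2.81 ± 0.14. Both factors thus fell in EPSCs, by more than the difference in mESCs. Klf2 stood at 0.87 ± 0.12 in mESCs, against -3.07 ± 0.12 in EPSCs, a difference of 3.94 ± 0.17, and Zfp42 at -0.15 ± 0.10 in mESCs, against -3.12 ± 0.10 in EPSCs, a difference of 2.98 ± 0.14. Tdh fell in both, with a difference of 4.65 ± 0.16. Klf5 fell in both, with a difference of -0.27 ± 0.17 that did not pass (edgeR adjusted p = 0.28). The size of the difference thus varied within the network. Otx2 and Sox3, formative genes, stood at 1.84 ± 0.15 and 4.39 ± 0.30 in mESCs, against -5.72 ± 0.18 and -0.46 ± 0.25 in EPSCs, with differences of 7.56 ± 0.24 and 4.85 ± 0.39.

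Several ERK genes gave opposite signs. Of 19 genes 8 rose and 4 fell in mESCs, while 2 rose and 13 fell in EPSCs, and 6 genes, Dusp6, Spred1, Etv4, Spry4, Fosl1 and Egr1, rose in mESCs and fell in EPSCs. Of these, Dusp6 was not called in mESCs without treated library 1 (0.93) or mESC library 1 (0.92), and Spred1 not without mESC library 2 (0.97). Spry4 had 1.49 and 1.79 CPM in EPSCs after the medium, against 166 and 174 CPM in EPSCs (-6.71 ± 0.18), where in mESCs it had risen by 2.23 ± 0.26, a difference of 8.94 ± 0.32. The 2 experiments thus began from Spry4 levels far apart, since mESCs in 2i/L had 1.11 and 0.925 CPM. Etv4 differed by 6.64 ± 0.26 and Egr1 by 4.90 ± 0.72 between the responses. Spry2 fell in both, with a difference of 0.09 ± 0.14 that did not pass (edgeR adjusted p = 0.8). Retinoid receptor genes also differed: Rarg stood at 1.54 ± 0.19 in mESCs, against -1.21 ± 0.18 in EPSCs, a difference of 2.75 ± 0.26.

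**Figure D5:**
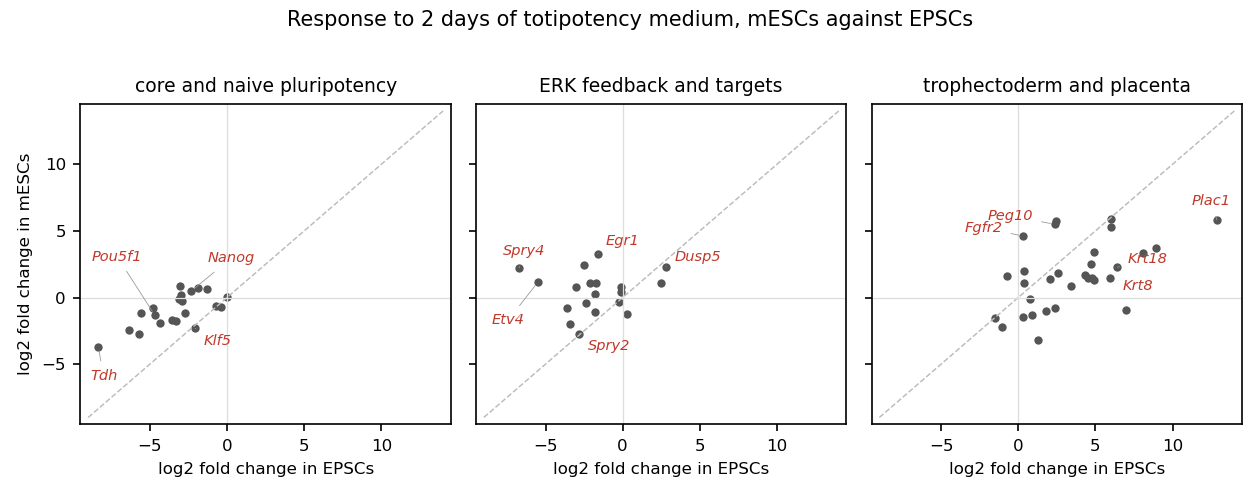
Log2 fold change after 2 days of totipotency medium in mESCs (vertical axis) against that in EPSCs (horizontal axis) for the members of 3 lists, core and naive pluripotency (left), ERK feedback and targets (middle) and trophectoderm and placenta (right). Each point is a gene, selected genes are named, and the dashed line marks equal responses. Pou5f1, at -1.30 in mESCs and -4.70 in EPSCs, lies far above the line, as do most pluripotency and ERK genes, while Krt8, at 1.48 in mESCs and 5.97 in EPSCs, lies below it.

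Trophectoderm genes differed in both directions. Of 31 genes with a count in the EPSC experiment 20 rose in mESCs and 21 in EPSCs, 16 in both, with 18 differences lower in mESCs and 4 higher. The keratin gene Krt8 had 707 and 534 CPM in EPSCs after the medium, against 9.77 and 9.98 CPM in EPSCs, a log2 fold change of 5.97 ± 0.14 that exceeded the 1.48 ± 0.16 of mESCs, with a difference of -4.49 ± 0.21. Fgfr2 stood at 4.61 ± 0.23 in mESCs, against 0.31 ± 0.18 in EPSCs, a difference of 4.30 ± 0.29, and Peg10 at 5.50 ± 0.14 in mESCs, against 2.35 ± 0.14 in EPSCs, a difference of 3.15 ± 0.20. The imprinted transporter gene Slc38a4 had a difference of -6.27 ± 0.17, lower in mESCs. Metabolic lists leaned the other way. Of 29 cholesterol and fatty acid genes 7 rose and none fell in mESCs, while none rose and 4 fell in EPSCs, with 12 differences higher in mESCs and none lower. The hypoxia gene Egln3 rose by 1.62 ± 0.17 in mESCs and had -1.51 ± 0.18 in EPSCs, a difference of 3.14 ± 0.24. Of 15 Hippo and YAP genes 2 rose and 3 fell in mESCs, while 8 rose and 1 fell in EPSCs, with 8 differences lower in mESCs and none higher.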

How the data were processed

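Counts of reads per gene were deposited by the authors for 52 libraries as whole numbers without scaling. The tools named per the submitters' processing notes were Trimmomatic 0.39 for trimming, STAR 2.7.10b for alignment and featureCounts 2.0.6 for counting, on build mm10. The annotation, strand setting and handling of mates are not stated there or in the labels. In 46 libraries at least 60% of counts from 1 to 10 were even, so both mates seem to have been counted.

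Genes passing filterByExpr of edgeR 4.0.16 (25056 of 55291) were scaled by TMM and fitted in 1 quasi-likelihood model with a mean for each of 26 groups (limma 3.58.1, R 4.3.3), the EPSC libraries of the 2 experiments being separate groups. Contrasts were tested by F tests, with Benjamini-Hochberg adjustment over the 25056 genes. Calls needed an adjusted p below 0.05 and a log2 fold change of at least 1 in size. The SE was computed from the fitted counts, the dispersion and the posterior quasi-dispersion, and has no value where a group had no count. The spread is pooled over all groups, so an SE can understate the spread of a single pair. On simulated counts 91% of genes changed by 1.5 and 100% of genes changed by 3 on the log2 scale were recovered (100 genes each of 24562). Of the calls 2.05% were false. The counts were drawn with the fitted dispersions, and far fewer genes were changed than were called in the data. The changed genes were taken from those well detected in mESCs in 2i/L, so genes near 0 counts there are not covered. The chi-square per degree of freedom between the libraries of a group was 3.54 in treated mESCs and 8.23 in mESCs in 2i/L. It was 20.58 in EPSCs after the medium and 7.19 in EPSCs. All lay above counting error, so no library was a copy of the other in its group. The SD of the log2 difference between libraries, over genes with 200 counts or more, was also largest in EPSCs after the medium. It was 0.181 there, against 0.125 to 0.163 in the other groups.

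Alternatives were RLE size factors, no filter, DESeq2 1.42.0 (Wald test), the compared groups alone, the replicate number as a block, halved counts where counts are mostly even, and leaving out each library. The gene lists and the genes named were chosen with earlier results of these data known, so no list is independent support of its own direction, and lists were described by counts and medians without a list test. Genes could be named if they were among the 12 with the largest change or the 10 with the highest CPM in each direction, among the 8 at each end of the difference of responses, any member of a list of up to 16 tested members, or in longer lists the 8 called members with the largest change, the 6 with the highest CPM and a set of markers. Some genes are counted in the lists but not reported here by name. Symbols were matched to GENCODE M21 (53292 of 55291) for coordinates and exon overlap. Among the genes given with levels, Rarb (38.4%) and Cdkn1c (30.7%) shared the most exonic bases with other genes.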

Additional observations from a re-analysis of the deposited data

Results flagged for a closer look

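The responses of mESCs and of EPSCs to the medium differed by the test of the difference itself for 4678 of 25056 genes. All of these were among the 21300 genes with a count in the EPSC experiment. The genes below are those described above, named with the difference on the log2 scale (mESC response minus EPSC response). The log2 fold change was higher in mESCs for Pou5f1 (3.40), Nanog (2.81), Klf2 (3.94), Zfp42 (2.98) and Tdh (4.65) of the pluripotency genes. It was higher for Otx2 (7.56) and Sox3 (4.85) of the formative genes, and for Spry4 (8.94), Etv4 (6.64) and Egr1 (4.90) of the ERK genes. It was also higher for Rarg (2.75), Fgfr2 (4.30), Peg10 (3.15) and Egln3 (3.14). It was lower in mESCs for Krt8 (-4.49) and Slc38a4 (-6.27). A higher value can be a smaller fall, as for Pou5f1 and Tdh, which fell in both cell types. Line, starting medium and experiment differ between the 2 pairs of groups and cannot be told apart.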

How the results depend on the processing

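In treated mESCs against mESCs in 2i/L, 5616 genes were called with RLE size factors, 5551 without the low-count filter, 5608 with DESeq2, 5442 with the compared groups alone and 5490 with halved counts, beside 5631. Leaving out a library gave 4714 to 4893. For the difference of responses the counts ran from 4596 to 5148 over the same settings, and from 4269 to 4393 with a library left out, beside 4678. The libraries of both groups carry replicate numbers 1 and 2, but same-numbered libraries did not deviate together (r = -0.02 over 9870 genes). From 2 libraries in each group it cannot be told whether same-numbered libraries shared a culture or a batch. With the replicate number as a block, in a fit of the compared groups alone, 5158 genes were called, and 4994 for the difference.

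Over all these settings 78.4% to 98.5% of the calls in treated mESCs and 85.4% to 95.7% of those in the difference were made again, and none in the opposite direction. Of the 167 called genes named in the text 6 lost their call in at least 1 setting, 3 of them in settings other than leaving out a library. Of the 37 genes not called 4 were gained in some setting, and no sign was reversed. Genes that a setting did not test, or left without an adjusted p, were passed over there, so the 6 and the 4 are minima. Leaving out a library moved the log2 value of 5 of the called genes by more than 1.5 times (Dkk1, Foxa2, Gjb2, Halr1 and Tagln), each with no count in a 2i/L library. List counts that moved by more than 1.5 times are given beside the counts; the cause was not tested. Depth limits the genes near 0 counts: 3 counts over a group equal 0.0323 CPM in treated mESCs and 0.0446 CPM in mESCs in 2i/L.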

Other observations

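Of all tested genes 14.2% rose and 8.26% fell, and the counts of the lists below are read against these shares. Of 34 tested interferon and antigen presentation genes 7 fell (20.6%) and 5 rose (14.7%), with a median log2 fold change of 0.04. The death gene Xaf1 had 1.24 and 1.33 CPM in treated mESCs, against 17.8 and 18.2 CPM in mESCs in 2i/L (-3.80 ± 0.29). The RNA sensor gene Ddx58 had 5.99 and 5.68 CPM in treated mESCs, against 31.0 and 31.4 CPM in mESCs in 2i/L (-2.42 ± 0.099). Both fell. Oasl2, which answers interferon, rose and had 4.29 and 3.93 CPM in treated mESCs, against 0.131 and 0.299 CPM in mESCs in 2i/L (4.19 ± 0.42). B2m, the light chain of class I antigen-presenting molecules, fell, with 25.3 and 25.4 CPM in treated mESCs, against 51.7 and 57.9 CPM in mESCs in 2i/L (-1.11 ± 0.13). In EPSCs 14 members of this list rose and 5 fell, and 14 differences were lower and 6 higher in mESCs. Of 15 tested Hippo and YAP genes 3 fell (20%) and 2 rose (13.3%) in mESCs. Ccn1, a YAP target, fell, with 33.4 and 29.9 CPM in treated mESCs, against 75.9 and 66.4 CPM in mESCs in 2i/L (-1.17 ± 0.16). The scaffold gene Amot rose, with 32.0 and 31.5 CPM in treated mESCs, against 5.44 and 5.28 CPM in mESCs in 2i/L (2.57 ± 0.15).

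Of 19 tested epithelial and mesenchymal genes 4 fell (7 without mESC library 2) and 3 rose (15.8%), with a median of -0.38. Cdh2, N-cadherin, rose, with 18.4 and 17.5 CPM in treated mESCs, against 6.03 and 6.83 CPM in mESCs in 2i/L (1.48 ± 0.14). Cdh1, E-cadherin, had 290.5 and 294 CPM in treated mESCs, against 444 and 427 CPM in mESCs in 2i/L (-0.57 ± 0.100) and did not pass. Crb3, a gene of apical polarity, fell, with 0.461 and 0.628 CPM in treated mESCs, against 6.19 and 5.33 CPM in mESCs in 2i/L (-3.40 ± 0.36). Of the 7 tested gap junction genes 3 fell and 1 rose. Gjb2 rose, with 8.94 and 8.45 CPM in treated mESCs, against 0 and 0.326 CPM in mESCs in 2i/L (5.59 ± 0.50), and its fitted value was 11.52 without mESC library 2, where the other 2i/L library had no count. Of 12 tested neural factors 2 rose (5 without the low-count filter, and 4 with the compared groups alone or without mESC library 1) and 2 fell (1 with the replicate block or without treated library 1, treated library 2 or mESC library 1). Irx3, a homeobox gene, rose, with 15.0 and 14.1 CPM in treated mESCs, against 0.197 and 0.272 CPM in mESCs in 2i/L (5.92 ± 0.42). Of 15 tested oocyte and maternal effect genes 3 rose (1 without mESC library 1) and 2 fell (1 with the replicate block or without treated library 1, treated library 2 or mESC library 2). Tle6, of the complex under the oocyte membrane, rose, with 24.9 and 25.4 CPM in treated mESCs, against 6.39 and 4.84 CPM in mESCs in 2i/L (2.17 ± 0.15). Of 13 mitochondrially encoded genes 1 rose (7.69%), mt-Cytb, with 1708 and 1705 CPM in treated mESCs, against 708 and 703 CPM in mESCs in 2i/L (1.27 ± 0.22).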
